A study of Mus musculus with 10 samples.

Results

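Cxcr4, Ackr3, Cxcl12, Aplnr and Apln are the receptors and ligands of 2 signalling axes that guide migrating cells. Their rows were taken from the count files by matching Ensembl identifiers to gene symbols in GENCODE M21, which gave 5 genes among 38924 in the files. The RNA came from a mouse embryonic stem cell (mESC) line in which the Foxa2 locus also makes a truncated human CD4 protein, so that living cells can be sorted by Foxa2 expression. All 4 groups carry this tag, and the sources used here name no further line. Foxa2+ CM (n = 3) and Foxa2- CM (n = 3) are cardiac mesoderm, the CD4+ and CD4- fractions of cells that display Pdgfra and Kdr. The group labelled Flk1+ high (n = 2) is the Kdr-high haematopoietic mesoderm from the same kind of culture, Flk1 being another name of Kdr. All 3 were sorted at day 5 from cardiac cultures given Activin A at 8 ng/ml, BMP4 at 1 ng/ml and VEGF at 5 ng/ml. Endoderm (n = 2) is the CD4+ fraction of cultures given Activin A alone at 75 ng/ml, also at day 5, so that its lineage and its culture conditions cannot be told apart.

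Cxcl12 is a secreted chemokine. It signals through Cxcr4, a G-protein-coupled receptor that turns cells towards the source of the ligand, and it is also bound by Ackr3, which takes the chemokine up and recruits arrestins without the usual G-protein response. Aplnr is the receptor of apelin, the secreted peptide made from Apln, and of a second peptide, Apela. Both axes are known for their part in the movements of mesoderm and endoderm at gastrulation and in the building of the heart and its vessels.

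On mm10, chromosome 1 holds Cxcr4 (ENSMUSG00000045382.6) between 128588199 and 128592293, minus strand, and Ackr3 (ENSMUSG00000044337.5) between 90203980 and 90216751, plus strand. The plus strand of chromosome 6 holds Cxcl12 (ENSMUSG00000061353.5), between 117168535 and 117181367. Aplnr (ENSMUSG00000044338.8) is found between 85136225 and 85139923 of chromosome 2, plus strand, and Apln (ENSMUSG00000037010.7) between 48025146 and 48034853 of chromosome X, minus strand. No other annotated gene overlaps any of the 5, and counts were made over their exons, which span between 1808 bases in Cxcr4 and 8176 bases in Cxcl12.

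The pair of ligands was high and low in the same groups, as described below, and their promoters are shown for that reason. The RefSeq promoter table (GRCm38.p6, the build also called mm10) held 4 of the 5 genes. Each sequence runs from 250 bases before to 50 bases after the start of transcription, 5′ to 3′ on the strand of the gene, at chr6:117168285-117168584 for Cxcl12 (plus strand) and chrX:48034804-48035103 for Apln (minus strand). Capitals mark every GC box, GGGCGG or its complement on the other strand, a motif common in promoters without a TATA box.
Cxcl12: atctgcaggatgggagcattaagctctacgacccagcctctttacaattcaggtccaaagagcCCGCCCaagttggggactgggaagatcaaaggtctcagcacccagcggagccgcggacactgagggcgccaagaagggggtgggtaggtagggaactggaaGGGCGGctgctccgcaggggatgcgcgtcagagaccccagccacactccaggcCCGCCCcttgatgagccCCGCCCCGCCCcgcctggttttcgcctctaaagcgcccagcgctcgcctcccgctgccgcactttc
Apln: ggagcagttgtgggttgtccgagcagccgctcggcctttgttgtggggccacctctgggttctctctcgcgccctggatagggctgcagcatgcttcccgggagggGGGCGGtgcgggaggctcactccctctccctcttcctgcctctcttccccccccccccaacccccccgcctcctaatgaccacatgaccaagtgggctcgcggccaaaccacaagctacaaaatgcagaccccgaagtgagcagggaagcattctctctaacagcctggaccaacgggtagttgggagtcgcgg
The Cxcl12 window held 5 GC boxes, of which the 3 nearest to the start lie at −33, −16 and −11, while the Apln window held 1, at −144. The windows were 64.7% and 64% G and C. Of all 32851 promoters of this length in the table, 35.7% hold at least 1 GC box. In the windows of the receptors the same motif had 3 matches for Cxcr4 and 1 for Ackr3, and a TATA box (TATAAA, in 13.6% of promoters) had 2 overlapping matches for Cxcr4 and 1 for Ackr3. A SOX core (ACAAAG, 18.7%) had 1 match, in Apln at −215. None of the 4 windows held a FOXA core (TGTTTAC, 3.65%), a HIF core (ACGTG, 19.6%), an E-box (CACGTG, 7.15%, which contains the HIF core), a GATA motif (AGATAA, 11.2%) or a T-box half-site (AGGTGT, 13.7%). Both strands were searched, and a match describes letters only.

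Libraries held between 10926284 and 17470126 counts on genes, so that a gene with 3 counts stands between 0.169 and 0.28 CPM (counts per 1000000 counts of the scaled library), a floor that covers counting error only. All 5 genes passed the expression filter in both models, which tested 15284 genes in the 6 CM samples and 16180 genes in all 10 samples. Foxa2 itself ran from 3.50 to 20.03 CPM in Foxa2+ CM and, in Foxa2- CM, from 0.873 to 2.54 CPM. It stood at 183 and 186 CPM in endoderm and at 0.690 and 0.788 CPM in Flk1+ high. The labels were checked against lists of marker genes, summed in each sample. These lists include Foxa2, Pdgfra and Kdr, by which the cells were sorted, so for these genes the check is not independent of the sort. Kdr alone had 554.5 and 592.7 CPM in Flk1+ high and between 353.7 and 440.2 CPM in CM. The 8 endoderm markers summed to between 1525 and 1593 CPM in endoderm, 201 and 213 CPM in Flk1+ high, with Foxa2+ CM between 130 and 156 CPM and Foxa2- CM between 92.2 and 112 CPM. In Flk1+ high replicates 1 and 2, Hhex alone had 114 and 130 CPM. Hhex and Cer1 were above every CM sample there, Foxa2 and Epcam below, and the others overlapped. The 12 haemato-endothelial markers reached between 2080 and 2502 CPM in Flk1+ high, between 701 and 1002 CPM over the CM samples and at most 106 CPM in endoderm, where Hbb-bh1 was at 0. The 9 cardiac mesoderm markers ran from 725 to 861 CPM in Foxa2+ CM and higher, from 928 to 1022 CPM, in Foxa2- CM, but no higher than 216 CPM in endoderm and 375 CPM in Flk1+ high. Between the CM groups this sum hid opposite directions, since Nkx2-5, Tbx5 and Myocd were higher and Pdgfra, Mesp1 and Hand1 lower in every Foxa2+ CM sample, and the other 3 markers overlapped. Sums over the 7 markers of pluripotent cells were 390 and 392 CPM in endoderm, 51.9 and 142 CPM in Flk1+ high, and for Foxa2+ CM and Foxa2- CM they ran from 77.6 to 90.2 and from 109 to 150 CPM. Primitive streak markers, 6 in number, summed to between 723 and 981 CPM in CM and endoderm samples and to 433 and 452 CPM in Flk1+ high. The near-equal sums in Flk1+ high hid opposite directions. Mixl1, Eomes and Gsc were higher in replicate 2 than in replicate 1, and T, Evx1 and Tbx6 lower. In replicates 1 and 2, T had 209 and 80.3 CPM and Eomes 81.0 and 205 CPM. Visceral endoderm (7 markers) stayed at or below 22.1 CPM in every sample, with Apoa2 at 0 in both CM groups, and neuroectoderm (4 markers) at or below 27.7 CPM.

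The ligands Cxcl12 and Apln separated the groups most, with high levels in endoderm and, between the CM groups, lower levels in Foxa2+ CM. The receptors were spread differently. Cxcr4 was low in Flk1+ high and did not pass the test between the other groups, Aplnr was highest in Flk1+ high, and Ackr3 passed the test in no comparison. Apln passed the test in 5 of the 6 comparisons, Cxcl12 in 4, Cxcr4 and Aplnr in 3 each and Ackr3 in none. Comparisons that share a group share its samples, so they are not separate evidence of one another.

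**Figure D1:**
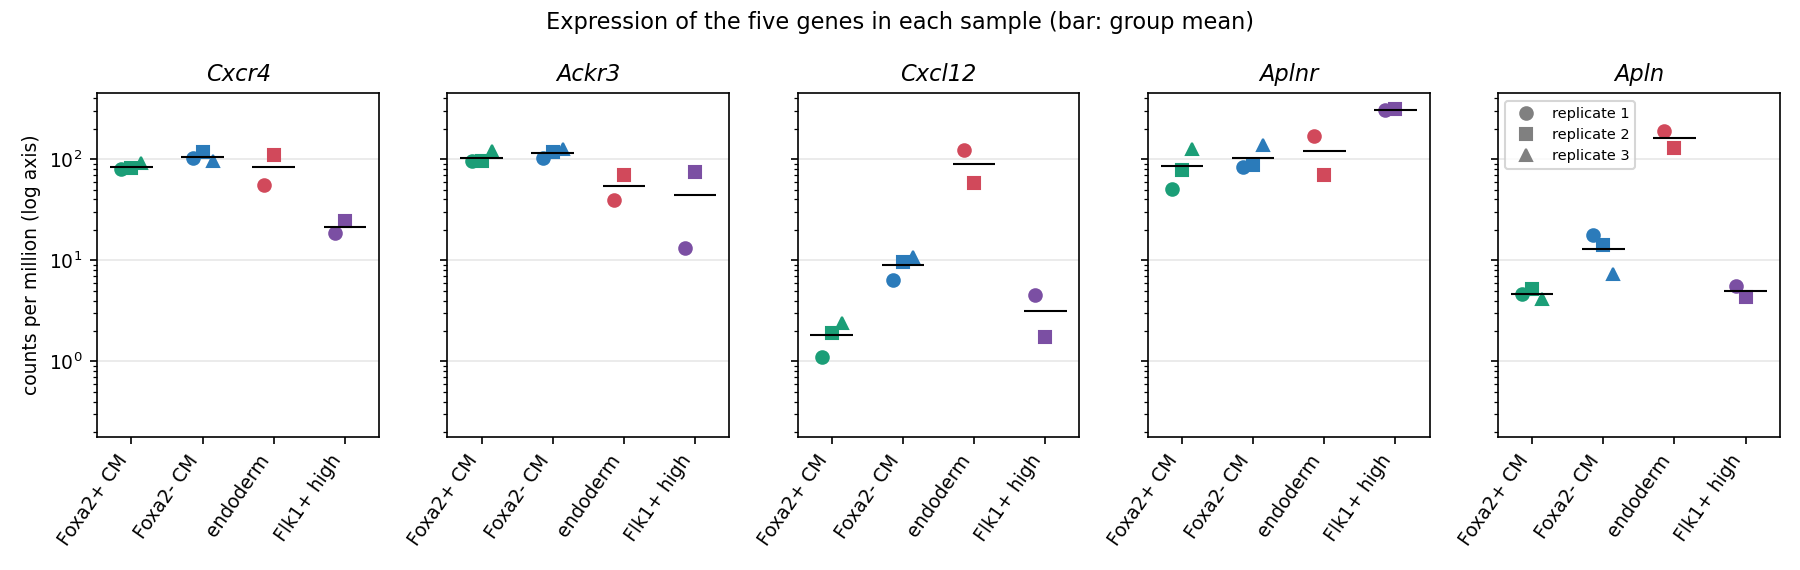
Expression of Cxcr4, Ackr3, Cxcl12, Aplnr and Apln in each of the 10 samples, in CPM on a log axis; circles, squares and triangles are replicates 1, 2 and 3, and bars are group means. Cxcl12 and Apln are highest in both endoderm samples and lower in the 3 Foxa2+ CM samples than in the 3 Foxa2- CM samples, Aplnr is highest in both Flk1+ high samples, and Cxcr4 is lowest there.

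Across the comparisons, the share of the 5 genes that passed was read against that of all genes. Of the 5, 2 passed between Foxa2+ CM and Foxa2- CM, both lower in the former, where 6.48% of all genes passed, 3.81% higher and 2.66% lower. Between endoderm and Foxa2+ CM, 2 of the 5 passed, both higher, where 35% of all genes did, 18.3% higher and 16.7% lower. For endoderm and Foxa2- CM the count was again 2, both higher, against 30.1%, of which 16.1% higher and 14% lower. Between Flk1+ high and Foxa2+ CM, Aplnr was higher and Cxcr4 lower, and 22.8% of all genes passed, 11.6% higher and 11.2% lower. Between Flk1+ high and Foxa2- CM, Aplnr was higher and Cxcr4 and Apln lower, against 21.6% of all genes, 11.3% higher and 10.3% lower. Endoderm and Flk1+ high differed in 4 of the 5, with Cxcr4, Cxcl12 and Apln higher and Aplnr lower in endoderm, against 32.6% of all genes, 16.4% higher and 16.2% lower. With 5 genes, 2 that passed where 35% of all genes did are not a result about these genes. The size of the fold changes set the ligands apart. That of Cxcl12 was beyond 99.4% of all genes between the CM groups and beyond 98.7% between endoderm and Foxa2+ CM, and that of Apln beyond 97.7% and 98.2%. The 5 genes were chosen with earlier results of these data known, so these shares and ranks are descriptions only.

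**Figure D2:**
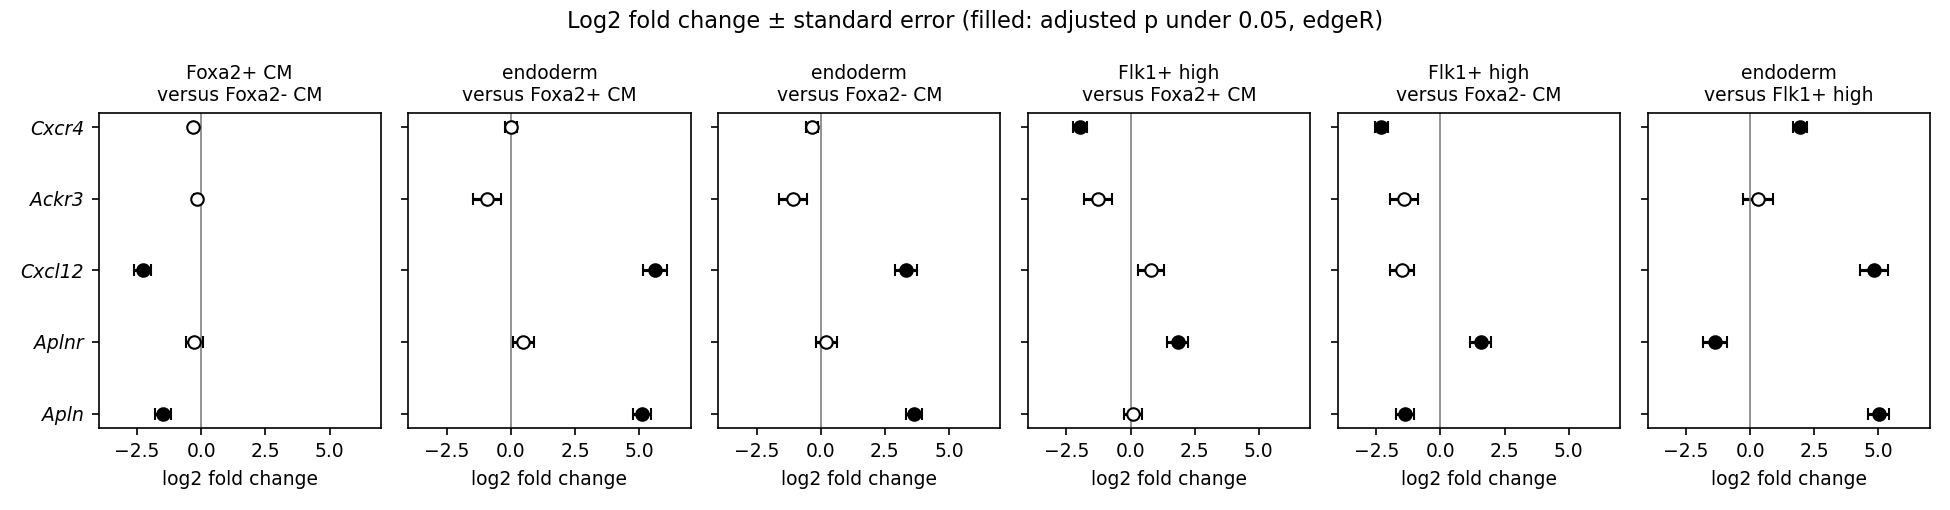
Log2 fold changes of the 5 genes in the 6 comparisons, with standard errors as bars; filled points are those with an adjusted p under 0.05. Cxcl12 and Apln lie left of 0 between Foxa2+ CM and Foxa2- CM and far right of 0 where endoderm is the first group, Cxcr4 and Aplnr lie on opposite sides of 0 wherever Flk1+ high is compared, and no Ackr3 point is filled.

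Cxcl12 transcript was present in endoderm at a level that neither CM group approached, and Foxa2+ CM stood below Foxa2- CM. In Foxa2+ CM replicates 1, 2 and 3 it had 1.10, 1.91 and 2.43 CPM, from 15, 33 and 43 counts. In Foxa2- CM the replicates had 6.44, 9.61 and 10.9 CPM, from 104, 121 and 193 counts. All 3 Foxa2+ CM samples therefore lay below all 3 Foxa2- CM samples, with means of 1.81 ± 0.670 and 8.98 ± 2.29 CPM (SD, n = 3 each). The mean log2 difference fitted by edgeR was −2.29 with a standard error of 0.32 (quasi-likelihood test, p adjusted by Benjamini-Hochberg over all genes = 0.00735), or 4.88 times more in Foxa2- CM. Adjusted p-values below come from the same test. With Foxa2+ CM replicate 2 left out the change was −2.33 with an adjusted p of 0.0501. The Foxa2+ CM level rests on few reads, though each library was above the floor of 3 counts. In bulk RNA from sorted cells, fewer cells that make a transcript and less transcript in each cell cannot be told apart.

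In endoderm, Cxcl12 had 122 and 58.0 CPM, from 1312 and 693 counts. Both samples were far above every other sample of the series. Endoderm exceeded Foxa2+ CM by 5.61 on the log2 scale (standard error 0.48, adjusted p = 3.68e-05) and Foxa2- CM by 3.33 (0.42, adjusted p = 0.000417). These are differences of 48.8 and 10 times. Flk1+ high had 4.52 and 1.73 CPM, from 72 and 22 counts, and endoderm exceeded it by 4.82 on the log2 scale (standard error 0.54, adjusted p = 0.000191). Leaving out endoderm replicate 1, the higher of the pair, lowered these values to 4.94, 2.66 and 4.18, and leaving out Flk1+ high replicate 1 raised the last to 5.69, all still past the threshold. The order of levels was thus endoderm, Foxa2- CM, Flk1+ high and Foxa2+ CM. Neighbouring groups at the low end were not separated: Flk1+ high differed from Foxa2- CM by −1.49 (adjusted p = 0.0533) and from Foxa2+ CM by 0.79 (adjusted p = 0.305). Of these, the first passed without Flk1+ high replicate 1 (−2.37, adjusted p = 0.0256), endoderm replicate 1 (−1.52, 0.0483) or endoderm replicate 2 (−1.52, 0.043), and the second turned to −0.09 without Flk1+ high replicate 1.

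Apln, the apelin gene, showed the same order of endoderm and Foxa2- CM over the other groups. Foxa2+ CM replicates had 4.68, 5.15 and 4.12 CPM, from 64, 89 and 73 counts. Foxa2- CM replicates had 17.7, 14.1 and 7.28 CPM, from 286, 177 and 129 counts. The groups did not overlap, Foxa2- CM replicate 3 was the lowest of its group, and the means were 4.65 ± 0.517 and 13.01 ± 5.29 CPM (SD, n = 3 each). The fitted difference was −1.48 on the log2 scale (standard error 0.31, adjusted p = 0.0309), or 2.78 times more in Foxa2- CM. This call was lost with any library left out other than Foxa2- CM replicate 3, at −1.48, −1.57 and −1.39 without Foxa2+ CM replicates 1, 2 and 3 and −1.21 and −1.42 without Foxa2- CM replicates 1 and 2 (adjusted p between 0.0694 and 0.129). Without Foxa2- CM replicate 3 it was −1.76 (adjusted p = 0.000447).

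Endoderm had 190 and 130 CPM of Apln, from 2038 and 1551 counts. Every CM sample was lower. The log2 fold change was 5.10 against Foxa2+ CM (standard error 0.34, adjusted p = 9.27e-06), 3.62 against Foxa2- CM (0.31, adjusted p = 4.71e-05) and 5.01 against Flk1+ high (0.40, adjusted p = 3.57e-05). Flk1+ high, at 5.52 and 4.33 CPM, overlapped Foxa2+ CM, from which it differed by 0.09 (95% interval −0.73 to 0.91, adjusted p = 0.884; −0.10 without Flk1+ high replicate 1). It was below Foxa2- CM, with a fitted −1.39 on the log2 scale (standard error 0.35, adjusted p = 0.0215). That call was lost without Foxa2- CM replicate 1 (−1.11, adjusted p = 0.0579) or 2 (−1.35, 0.0548) and without Flk1+ high replicate 1 (−1.58, 0.052) or 2 (−1.24, 0.103), and with only the groups compared in the model (−1.40, 0.0803).

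Over the 10 samples Pearson's r between Cxcl12 and Apln, on log2 CPM, was 0.944. The value is a description, since the samples fall in 4 groups and share the endoderm libraries at the upper end. Markers of other cell types stood beside these differences in mixed directions. Of the 8 endoderm markers, Foxa2 (the sort gene), Sox17 and Trh were higher in every Foxa2+ CM sample than in every Foxa2- CM sample. Foxa1 and Cdh1 were lower, and 3 overlapped. Of the 7 markers of pluripotent cells, Pou5f1, Nanog, Sox2 and Dppa5a were lower in every Foxa2+ CM sample, Esrrb was higher, and 2 overlapped. In endoderm Pou5f1, Nanog and Sox2 were above every CM sample, Zfp42 and Dppa5a below, and 2 overlapped. The part of these markers in the ligand levels was not tested.

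**Figure D3:**
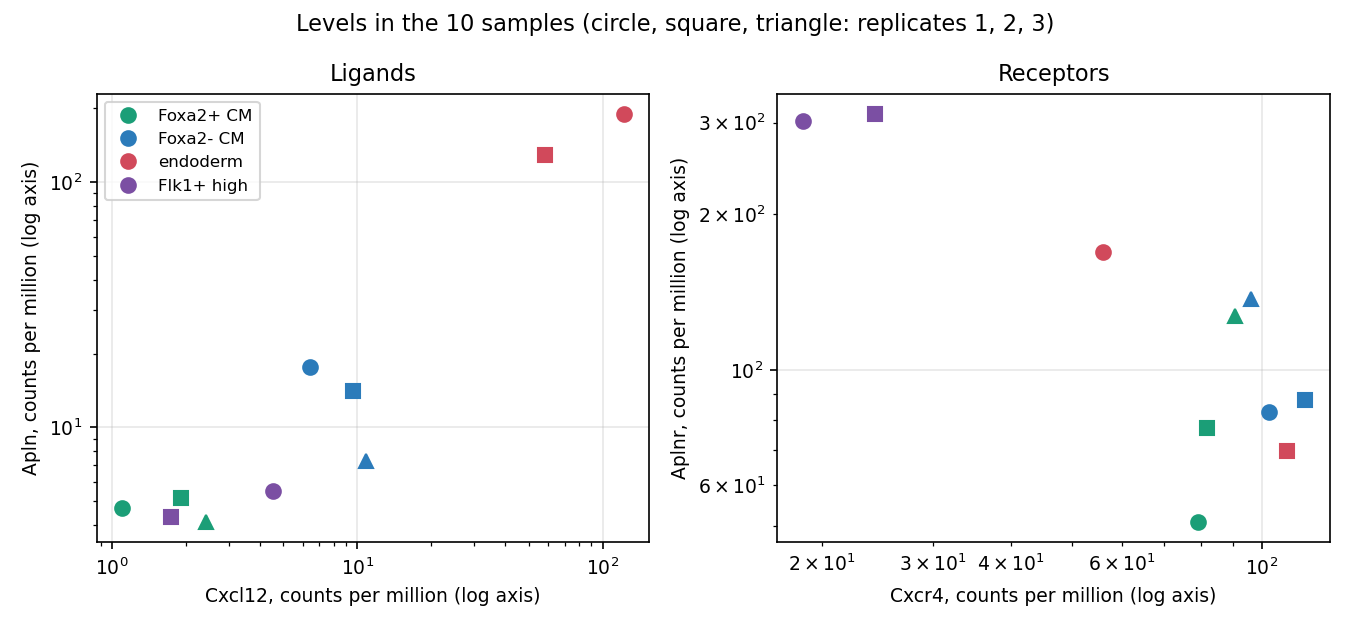
Levels in the 10 samples in CPM on log axes, Cxcl12 against Apln at left and Cxcr4 against Aplnr at right; colours are groups, and circles, squares and triangles are replicates 1, 2 and 3. Both endoderm samples lie at the upper right of the ligand plot, and both Flk1+ high samples, with at least 302.5 CPM of Aplnr and at most 24.3 CPM of Cxcr4, lie at the upper left of the receptor plot.

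Cxcr4, the signalling receptor of Cxcl12, was well expressed in both CM groups and in endoderm and low in Flk1+ high. Foxa2+ CM replicates had 79.2, 81.9 and 90.6 CPM and Foxa2- CM replicates 103, 117 and 96.2 CPM. The groups did not overlap, and the means were 83.9 ± 5.96 and 105 ± 10.7 CPM (SD, n = 3 each). The difference was small, a log2 fold change of −0.32 (standard error 0.085, 95% interval −0.52 to −0.13), and did not pass at an adjusted p of 0.0671. It passed without Foxa2- CM replicate 3 (−0.38, adjusted p = 0.0211) and with DESeq2 (−0.34, 0.0157), while with all 10 samples in 1 model the adjusted p was 0.591.

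Flk1+ high had 18.6 and 24.3 CPM of Cxcr4, from 297 and 309 counts. Every CM and endoderm sample was higher. The log2 fold change was −1.97 against Foxa2+ CM (standard error 0.26, adjusted p = 0.00102) and −2.30 against Foxa2- CM (0.26, adjusted p = 0.000589), or 3.92 and 4.92 times less. Endoderm exceeded Flk1+ high by 1.95 on the log2 scale (standard error 0.27, adjusted p = 0.000673). Endoderm itself had 56.0 and 110 CPM, and all 3 Foxa2+ CM values lay between them. Its differences from Foxa2+ CM and Foxa2- CM were −0.02 (95% interval −0.54 to 0.51, adjusted p = 0.961) and −0.35 (−0.88 to 0.19, adjusted p = 0.3). Endoderm replicates 1 and 2 decided the sign: these values were 0.35 and 0.03 without replicate 1, and −0.61 (adjusted p = 0.0319) and −0.92 (adjusted p = 0.00749) without replicate 2. Without Foxa2+ CM replicate 3 the first was 0.04. Down the order from Foxa2- CM through Foxa2+ CM to endoderm, neighbours were not separated, and only the step from endoderm to Flk1+ high passed the test.

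Ackr3, the receptor that takes up Cxcl12, lay between 95.2 and 126 CPM in every CM sample and was uneven in Flk1+ high. Foxa2+ CM replicates had 95.2, 95.8 and 119 CPM and Foxa2- CM replicates 103, 118 and 126 CPM, which overlap. The log2 fold change was −0.16 (95% interval −0.42 to 0.10, adjusted p = 0.56). Endoderm had 39.3 and 69.0 CPM, below every CM sample, and Flk1+ high had 13.2 and 74.4 CPM. None of the 5 comparisons with endoderm or Flk1+ high passed in the model of all 10 samples. Endoderm differed from Foxa2+ CM by −0.93 (95% interval −2.14 to 0.27, adjusted p = 0.206) and from Foxa2- CM by −1.09 (−2.30 to 0.12, adjusted p = 0.158). By their means the groups ran from Foxa2- CM through Foxa2+ CM and endoderm to Flk1+ high, and no neighbours in this order were separated.

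The Flk1+ high replicates were 5.6 times apart in Ackr3, as fitted on log2 CPM, a gap that only 0.729% of the 12205 genes compared reached in this group. This pair decides the calls. Without Flk1+ high replicate 2 the log2 fold change of Flk1+ high was −3.01 against Foxa2+ CM (adjusted p = 0.000653) and −3.15 against Foxa2- CM (0.000625), where with both replicates it was −1.25 (0.13) and −1.41 (0.0985). Endoderm against Flk1+ high moved from 0.32 (adjusted p = 0.715) to 2.04 (0.00261) without Flk1+ high replicate 2, to −0.46 without Flk1+ high replicate 1 and to −0.15 without endoderm replicate 2. Without either Flk1+ high replicate, 1 or 2, endoderm was lower than Foxa2+ CM (−0.93 or −0.97, adjusted p = 0.00765 or 0.00785) and than Foxa2- CM (−1.09 or −1.11, 0.00407 or 0.00465), and it was so with only the groups compared in the model (−0.93 and −1.10). The Flk1+ high replicates also differed in marker sums. Replicate 2 had more of the summed cardiac mesoderm markers, at 375 CPM against 189 CPM in replicate 1, with 6 of the 9 higher and Pdgfra, Mesp1 and Tbx5 lower. It had less of the markers of pluripotent cells, at 51.9 against 142 CPM (5 of 7 lower), and of neuroectoderm, at 4.96 against 25.2 CPM, and more of the haemato-endothelial markers, at 2502 against 2080 CPM (9 of 12 higher). Most of the gap in the neuroectoderm sum was in Tubb3, at 4.17 against 22.9 CPM. Most of the gap in the sum for pluripotent cells was in Klf4, at 6.85 against 67.45 CPM. Pou5f1 had 19.6 against 41.8 CPM and Nanog 1.65 against 1.82 CPM, while Sox2 and Zfp42 were higher in replicate 2. The part of all these markers in the Ackr3 level was not tested.

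The ratio of Cxcr4 to Ackr3 within a sample does not depend on library scaling. Per kilobase of exon it was 1.54, 1.58 and 1.41 in Foxa2+ CM and 1.85, 1.84 and 1.41 in Foxa2- CM. The log2 ratio differed by −0.16 between the groups (means 0.59 ± 0.09 and 0.76 ± 0.22, SD, n = 3 each), with p = 0.3 in a two-sided exact permutation test, whose smallest possible p is 0.1. Endoderm had ratios of 2.64 and 2.94, and Flk1+ high 2.62 and 0.606.

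Aplnr, the apelin receptor, was highest in Flk1+ high, where the replicates were close at 303 and 312 CPM, from 4821 and 3960 counts. Foxa2+ CM replicates had 51.0, 77.4 and 127 CPM, and Foxa2- CM replicates 83.2, 87.5 and 137 CPM. All 6 lay below both Flk1+ high samples. The log2 fold change of Flk1+ high was 1.85 against Foxa2+ CM (standard error 0.41, adjusted p = 0.0114) and 1.58 against Foxa2- CM (0.41, adjusted p = 0.0229), or 3.60 and 2.99 times more. The second call was lost without Foxa2- CM replicate 1 (1.42, adjusted p = 0.0969) or 2 (1.45, 0.0919) and without Flk1+ high replicate 1 (1.60, 0.0502) or 2 (1.53, 0.0806). The highest Aplnr value, in Flk1+ high replicate 1, was 1.3 counts per exonic base, where duplicate removal sets a bound of 2 for reads of both strands and can compress high values.

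Between the CM groups Aplnr overlapped, with a log2 fold change of −0.27 (95% interval −1.02 to 0.48, adjusted p = 0.786) that moved to 0.01 without Foxa2- CM replicate 3. Replicate 3 of both groups was the highest, and the summed haemato-endothelial markers were highest there too, at 971 CPM for Foxa2+ CM and 1002 CPM for Foxa2- CM, against at most 796 CPM in the other CM samples. Of the 12 markers, 9 were highest in replicate 3 of Foxa2+ CM and 10 in replicate 3 of Foxa2- CM. Other lists moved there too. Of the 9 cardiac mesoderm markers, 6 and 4 were highest in replicate 3 of Foxa2+ CM and Foxa2- CM, and 3 were lowest in each. Of the 6 primitive streak markers, 4 and 6 were lowest. The share of all genes highest in replicate 3 is not given here. The part of these markers in the Aplnr level was not tested. Endoderm had 169 and 69.9 CPM, and 5 of the 6 CM values lay between them. Its differences from Foxa2+ CM and Foxa2- CM were 0.48 (95% interval −0.46 to 1.42, adjusted p = 0.403) and 0.21 (−0.73 to 1.16, adjusted p = 0.739), and they turned to −0.33 and −0.59 without endoderm replicate 1.

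Endoderm lay below Flk1+ high in Aplnr, with a fitted −1.37 on the log2 scale (standard error 0.46, adjusted p = 0.0479). This call was close to the threshold and was lost with other size factors, with DESeq2 (−1.36, adjusted p = 0.0545), with only the groups compared (−1.36, 0.0859) and without any of 6 libraries. These were Foxa2+ CM replicate 2 (−1.36), Foxa2- CM replicates 1 and 2 (−1.37 each), endoderm replicate 2 (−0.86), and Flk1+ high replicates 1 and 2 (−1.39 and −1.34). Without endoderm replicate 1 the value was −2.15 (adjusted p = 0.0229). The order was Flk1+ high, endoderm, Foxa2- CM and Foxa2+ CM, and the last 3 were not separated.

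The endoderm replicates differed from each other in these genes. Replicate 2 exceeded replicate 1 by 0.97 on the log2 scale in Cxcr4 and by 0.81 in Ackr3, and stood below it by a difference of −1.08 in Cxcl12, −1.27 in Aplnr and −0.55 in Apln. Gaps of that size or larger were seen in 3.92%, 5.6%, 3.12%, 2.11% and 11.1% of the 12205 genes compared. The receptors of Cxcl12 were thus higher in the sample where Cxcl12 was lower, which rests on 2 libraries. Marker sums differed between replicates 1 and 2 too, at 126 and 216 CPM for cardiac mesoderm and 53.5 and 106 CPM for haemato-endothelial markers. Of the former, Mesp1, Hand1 and Hand2 were lower in replicate 2. Endoderm markers had 1525 and 1593 CPM, those of pluripotent cells 390 and 392 CPM and those of the primitive streak 961 and 879 CPM. The part of these markers in the gaps was not tested.

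Levels of different genes were compared per kilobase of exon, as RPKM from the deposited counts and GENCODE exon lengths. Each length pools the exons of all annotated transcripts of a gene, 4 of them over 8176 bases for Cxcl12. Where shorter transcripts are in use, RPKM understates the level. In endoderm, Apln at 50.8 ± 13.5 RPKM and its receptor Aplnr at 32.3 ± 18.96 RPKM (SD, n = 2) were both high, and Cxcl12 stood at 11.02 ± 5.56 RPKM beside Cxcr4 at 45.8 ± 20.99 RPKM. In Flk1+ high, Aplnr reached 83.0 ± 1.79 RPKM while Apln was at 1.56 ± 0.267 RPKM. In Foxa2+ CM the receptors were at 46.4 (Cxcr4), 30.9 (Ackr3) and 23.0 RPKM (Aplnr) and the ligands at 0.221 (Cxcl12) and 1.48 RPKM (Apln). In Foxa2- CM the corresponding levels were 58.3, 34.5 and 27.8 RPKM for the receptors and 1.10 and 4.13 RPKM for the ligands. Mesoderm of each kind therefore held far more receptor than ligand transcript. Endoderm had more of both ligands than any other group sorted here, with Cxcl12 at 14.95 and 7.09 RPKM in its replicates.

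For each gene, the 3 genes whose log2 CPM over the 10 samples was most like its own were found among 12204 others with a mean of at least 50 counts. Dkk1, a secreted Wnt antagonist (r = 0.987), Ephb3, an ephrin receptor (0.984), and Gm6116 (0.979) were most like Cxcr4. For Ackr3 they were Kcnmb4 (0.979), Cyp1b1 (0.974) and ENSMUSG00000098872.1 (0.966), which has no symbol in GENCODE M21. Cxcl12 was most like Ttyh1 (0.982), Dact1 (0.976) and Jag1, a Notch ligand (0.974). For Aplnr they were Spata6 (0.976), 1500009L16Rik (0.975) and Zgrf1 (0.972), and for Apln Cabp7 (0.993), Trp73 (0.990) and the Wnt ligand Wnt8a (0.984). These values describe 4 groups of samples and carry no test. Among the 5 genes, Cxcr4 and Ackr3 had r = 0.774 and Cxcr4 and Aplnr r = −0.842.

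The genes around both axes were taken from 9 lists with 134 genes in all: other chemokine receptors and ligands, further ligands of these receptors, enzymes that process the ligands, receptor partners, G proteins, arrestins with GRK and RGS proteins, receptor trafficking and migration effectors. Between Foxa2+ CM and Foxa2- CM 86 were tested, and in the other comparisons 97. The expression filter favours a difference in a gene that passed it only through the group where it was highest. With such genes left out, 81 and 89 remained. Between the CM groups 4 were higher and 4 lower in Foxa2+ CM, or 9.88%, beside 6.26% of all genes held to the same rule. Endoderm was higher in 18 and lower in 23 against Foxa2+ CM (46.1%, beside 34.2% of all genes) and higher in 14 and lower in 17 against Foxa2- CM (34.8%, beside 29.3%). Against Flk1+ high it was higher in 15 and lower in 26 (46.1%, beside 31.7%). Flk1+ high was higher in 14 and lower in 10 against Foxa2+ CM (27%, beside 23%) and higher in 16 and lower in 10 against Foxa2- CM (29.2%, beside 21.7%). Medians of the log2 fold changes of these genes lay between −0.10 and 0.09, and those of all genes within 0.03 of 0.

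By list, between the CM groups none passed of 4 other chemokine receptors, 3 further ligands, 6 receptor partners and 7 trafficking genes held to this rule. Of 3 chemokine ligands 1 was lower, of 8 processing genes 2 were higher, of 16 G proteins 2 were lower, of 14 arrestin, GRK and RGS genes 2 were higher, and of 20 migration effectors 1 was lower in Foxa2+ CM. Of all genes, 3.82% were higher and 2.44% lower. Between endoderm and Foxa2+ CM, 34.2% of all genes passed, 17% higher and 17.2% lower in endoderm. The lists ran from 14.3% of the trafficking genes through 31.2% of the G proteins to 88.9% of the processing genes. In this comparison the chemokine receptors Ccr7, Cxcr5 and Ccr4 were lower of 7, and of 5 chemokine ligands Cxcl16 was higher and Cx3cl1 and Ccl17 lower in endoderm. Of 3 further ligands Adm was lower. Of 9 processing genes Cpe, Mmp14 and Prep were higher and Dpp4, Mme, Mmp9, Ace and Furin lower. Of 7 partners Ramp3 was higher and Cd44 and Cd74 lower, and of 16 G proteins Gnai1, Gnao1, Gnai3 and Gnb1 were higher and Gnb4 lower. Of 14 arrestin, GRK and RGS genes Rgs2 and Rgs12 were higher and Rgs3, Rgs4, Rgs5 and Arrb1 lower, and of 7 trafficking genes Itch was higher. Those of them that have no value here were named after their values were seen.

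Between the CM groups the largest change among tested genes of the lists was in Dpp4, a surface peptidase that clips and inactivates Cxcl12. Its levels were 18.2, 18.3 and 13.99 CPM in Foxa2+ CM but 1.55, 1.59 and 3.61 CPM in Foxa2- CM, which is 2.87 on the log2 scale (adjusted p = 0.00439). Of the CM groups, the one with less Cxcl12 transcript had more Dpp4 transcript. In Flk1+ high the means were 3.125 CPM of Cxcl12 and 3.225 CPM of Dpp4, and in endoderm 90.1 and 5.10 CPM. Dpp4 acts on the protein, and a link between these transcript levels was not tested. Dpp4 was also above endoderm (2.33 and 7.86 CPM, log2 fold change of endoderm −1.71, adjusted p = 0.0395) and above Flk1+ high (1.88 and 4.57 CPM, −2.40, adjusted p = 0.0166) in Foxa2+ CM. Mme, or neprilysin, which breaks down apelin, did not separate the CM groups (0.25, adjusted p = 0.842) and was lower in endoderm and Flk1+ high than in both, at means of 4.13 and 5.56 CPM against 69.1 and 57.8 CPM. The other processing gene that was higher in Foxa2+ CM was Furin, a proprotein convertase (0.33), which was named after its value was seen.

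Among 30 genes of the G-protein and the arrestin, GRK and RGS lists, 4 passed between the CM groups, 2 higher and 2 lower in Foxa2+ CM. That was 12.5% of the first list and 14.3% of the second, beside 6.26% of all genes (3.82% higher and 2.44% lower). Rgs16, which speeds the shut-off of Gi and Gq proteins, had 45.3, 49.7 and 49.97 CPM in Foxa2+ CM against 16.97, 18.3 and 19.9 CPM in the Foxa2- CM replicates (1.39 on the log2 scale, adjusted p = 0.000821). In endoderm it had 57.3 and 62.9 CPM (0.32 against Foxa2+ CM, adjusted p = 0.0778), and it was lowest in Flk1+ high, at 5.40 and 7.01 CPM. Rgs4, of the same family, was higher in Foxa2+ CM by 0.76 (adjusted p = 0.0162), and in endoderm it had 1 and 2 counts, which is under the floor. In the opposite direction, the Gi and Go subunits Gnai1 (−0.51, adjusted p = 0.0288) and Gnao1 (−0.93, adjusted p = 0.015) were lower in Foxa2+ CM. Both were higher in endoderm than in Foxa2+ CM, by 1.73 (adjusted p = 1.98e-05) and 1.64 (adjusted p = 0.00819). The remaining gene of the 4 that were lower, besides Cx3cl1 below, was Pak1, a kinase activated by Rac and Cdc42, at −0.46, which was named after its value was seen.

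Among other ligands, Apela, the second ligand of Aplnr, was detected in endoderm, with 18 and 23 counts. In Flk1+ high it had 0 counts in both libraries, and in Foxa2+ CM 0, 0 and 1. Foxa2- CM had 2, 2 and 7 counts, and Apela was too low to be tested between the CM groups. It passed the expression filter only through the endoderm samples, so its test supports nothing and is not given. Cx3cl1, a chemokine anchored in the membrane that acts through another receptor, went the other way. It was highest in CM, with 50.6, 55.03 and 66.8 CPM in the Foxa2+ CM replicates, below the 81.6, 77.5 and 75.4 CPM of Foxa2- CM (−0.44, adjusted p = 0.04), and fell to 7.27 and 8.62 CPM in endoderm. Adm, a peptide that Ackr3 also binds, was lower in endoderm than in Foxa2+ CM, at −2.50 on the log2 scale (adjusted p = 0.00548).

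Among chemokine receptors beyond Cxcr4 and Ackr3, 10 of 21 were tested with Flk1+ high and endoderm. Ackr1, a chemokine-binding receptor known from red cells and venules, was higher in Flk1+ high, with 23.3 and 11.3 CPM, than in Foxa2+ CM by 3.31 on the log2 scale (adjusted p = 0.000567). It was the one receptor of 7 that passed between Flk1+ high and either CM group. That is 14.3%, beside 23% of all genes against Foxa2+ CM and 21.7% against Foxa2- CM. The other 3 tested, Cxcr3, Ccr10 and Ccrl2, passed the expression filter only through Flk1+ high and are not counted. Ccr7, which directs lymphoid cells, had means of 17.1 and 17.3 CPM in the CM groups and 0.810 CPM in endoderm. Cd44, a partner of Cxcr4 at the membrane, was lower in endoderm, at −3.09 against Foxa2+ CM (adjusted p = 3.77e-05) and Sdc4, a proteoglycan that binds Cxcl12, lower in Flk1+ high, at −1.68 (adjusted p = 0.00132). Ramp2, the accessory protein of adrenomedullin receptors, was higher in Flk1+ high than in Foxa2+ CM by 2.66 (adjusted p = 0.00122).

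Downstream, the named receptor trafficking genes had small differences. The changes of Itch, the ubiquitin ligase that sends Cxcr4 to lysosomes, reached no more than 0.28 (endoderm above Foxa2+ CM, adjusted p = 0.00776). Hgs and Stam, which sort ubiquitinated receptors, differed by 0.21 (adjusted p = 0.0491) and −0.26 (adjusted p = 0.0257) between endoderm and Flk1+ high. Of 21 migration effectors, 7 were higher and 2 lower in Flk1+ high than in Foxa2+ CM, or 33.3% and 9.52%, beside 11.5% and 11.6% of all genes. In endoderm 6 were higher and 5 lower than in Foxa2+ CM, or 28.6% and 23.8%, beside 17% and 17.2%. Elmo1, which activates Rac with Dock proteins, was higher in endoderm by 1.13 (adjusted p = 7.27e-05), and its relative Elmo2 was higher in Flk1+ high by 0.65 (adjusted p = 0.000336). Pik3cb, a catalytic PI3-kinase subunit that G proteins can activate, was higher in endoderm than in Foxa2+ CM by 2.49 (adjusted p = 4.5e-05). Prex1, a Rac activator driven by G-protein beta-gamma subunits, was lower there (−1.24, adjusted p = 2.92e-06) and in Flk1+ high (−0.77, adjusted p = 0.000112).

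**Figure D4:**
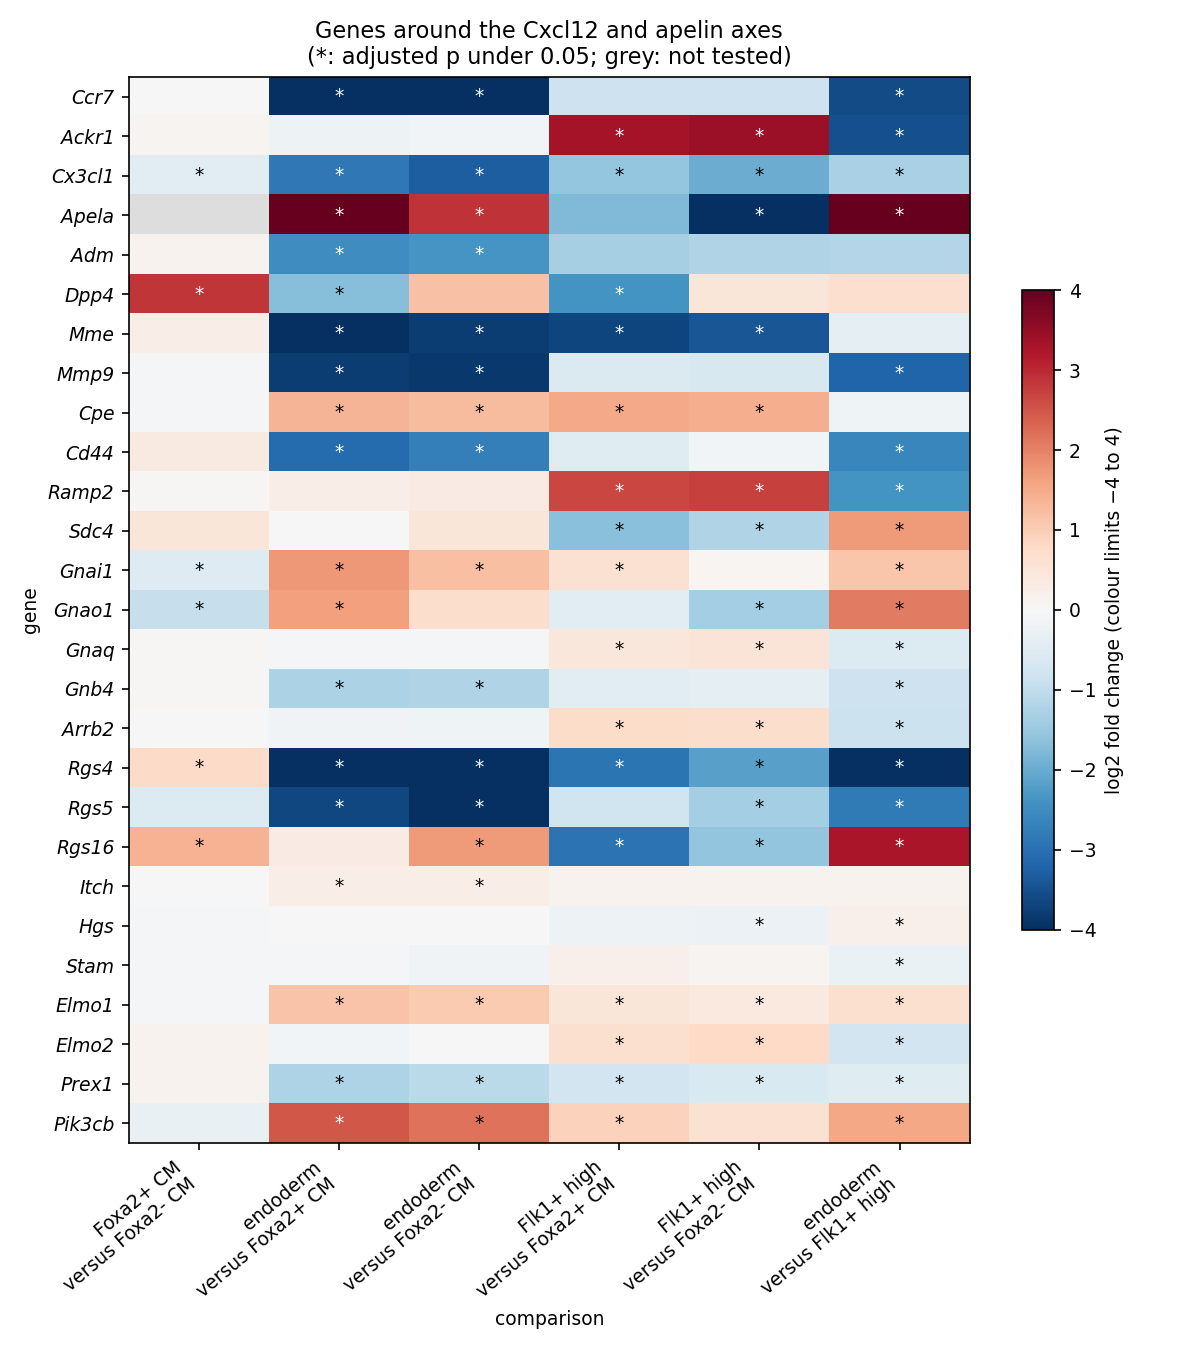
Log2 fold changes of 27 named genes around both axes in the 6 comparisons; colours run from −4 to 4, asterisks mark an adjusted p under 0.05, and grey was not tested. Dpp4 and Rgs16 are the strongest red cells between Foxa2+ CM and Foxa2- CM, and the columns of endoderm against CM hold the deepest blue for Ccr7, Mme, Mmp9, Rgs4 and Rgs5. Apela passed the expression filter only through endoderm, so its colours and asterisks support nothing.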

How the data were processed

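RNA sequencing of 10 samples in 4 sorted groups was analysed. Per the submitters' processing notes and the study's methods, the authors made unstranded libraries, aligned 50 nt single-end reads to mm10 with STAR (version 2.5.0a), removed duplicates with Picard without molecular identifiers, and counted reads with HTSeq (version 0.6.0). They used DESeq2 for their own tests. The deposited values are raw counts of whole reads for each gene.

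The members and all lists were chosen with earlier results of these data known. Counts were scaled by TMM and tested with edgeR (version 4.0.16, R 4.3.3): filterByExpr, quasi-likelihood test, Benjamini-Hochberg adjustment over all genes tested, threshold 0.05. Foxa2+ CM and Foxa2- CM were compared in the 6 CM samples and all other pairs of groups in 1 model of 10 samples. Standard errors were worked back from the test statistic, and intervals are 95%. CPM refers to the scaled library, RPKM also to the exonic length in GENCODE M21, which matched 37607 of 38924 identifiers. Log2 CPM for likeness had a prior count of 2, and the ratio of Cxcr4 to Ackr3 a pseudocount of 0.5. Lists covered chemokine receptors, chemokine ligands, further ligands, processing enzymes, receptor partners, G proteins, arrestins with GRK and RGS proteins, trafficking and migration effectors. Named were, of each, at most 4 genes with the smallest adjusted p among those that passed somewhere with a mean of at least 50 counts, plus Apela and Dpp4. The 7 lists of cell type markers served as checks. Counts over the lists leave out genes that passed filterByExpr only through the group where they were highest, a rule chosen after the data were seen.

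Nothing in the sources says that samples came from separate cultures, so p-values measure the spread between these samples, which may be technical. Depth ran from 10926284 to 17470126 counts. On simulated counts with 200 genes changed by 1.5 on the log2 scale, edgeR recovered 96% for the CM comparison (15284 genes, 12 unchanged genes called) and 90% for endoderm against Foxa2+ CM (16180 genes, 8 called). DESeq2 (version 1.42.0) recovered 97% (26 called) and 92.5% (34 called). Alternatives were other size factors, no filter, DESeq2, a replicate block, other sets of samples in the model and leaving out each replicate. Plots used matplotlib 3.10.9 and pandas 2.3.3.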

Additional observations from a re-analysis of the deposited data

How the results depend on the processing

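Over the alternatives to the fold changes of the 5 genes, 430 values kept their direction and side of the threshold, 26 no longer passed, 23 newly passed and 11 changed sign. Endoderm against either CM group or Flk1+ high passed under all alternatives run for Cxcl12 and Apln, as did Cxcr4 in Flk1+ high against every other group and Aplnr in Flk1+ high against Foxa2+ CM. Where the settings below changed a call, the cause was not tested. Groups of 2 or 3 samples and, for Cxcl12 in Foxa2+ CM, 15 to 43 counts limit the precision.

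Aplnr between endoderm and Flk1+ high no longer passed at −1.36 (DESeq2 size factors), −1.32 (upper-quartile factors), −1.35 (library size only), −1.36 (DESeq2) and −1.36 (only the groups compared). Apln between Flk1+ high and Foxa2- CM no longer passed with only these groups, at −1.40. Cxcr4 between the CM groups passed at −0.34 with upper-quartile factors, −0.34 with no filter and −0.34 with DESeq2. Cxcl12 between Flk1+ high and Foxa2- CM passed at −1.56 with library size only, −1.51 with no filter and −1.52 with DESeq2. Ackr3 passed with only the groups compared, at −0.93 for endoderm against Foxa2+ CM and −1.10 against Foxa2- CM. Genes called were 288 between the CM groups with all 10 samples in 1 model (990 in the report), and 2675 for endoderm against Flk1+ high (5276) and 2159 for Flk1+ high against Foxa2- CM (3492) with only the groups compared.

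With 1 replicate left out, values ran between these limits. Between Foxa2+ CM and Foxa2- CM they were −2.55 to −2.05 for Cxcl12, −1.76 to −1.21 for Apln, −0.38 to −0.25 for Cxcr4 and −0.68 to 0.014 for Aplnr. For endoderm against Foxa2+ CM they were −0.61 to 0.35 for Cxcr4, −1.42 to −0.62 for Ackr3 and −0.33 to 0.96 for Aplnr. Against Foxa2- CM these were −0.92 to 0.034, −1.57 to −0.77 and −0.59 to 0.70. For Flk1+ high against Foxa2+ CM they were −3.01 to −0.47 for Ackr3, −0.088 to 1.26 for Cxcl12 and −0.10 to 0.22 for Apln. Against Foxa2- CM they were −3.15 to −0.63 for Ackr3, −2.37 to −1.01 for Cxcl12, 1.42 to 1.85 for Aplnr and −1.68 to −1.11 for Apln. For endoderm against Flk1+ high they were −0.46 to 2.04 for Ackr3 and −2.15 to −0.86 for Aplnr. Genes called ran from 234 to 1701 between the CM groups, without Foxa2+ CM replicate 2 and Foxa2- CM replicate 3. They ran from 3601 to 6549 for endoderm against Foxa2+ CM, 3015 to 5765 against Foxa2- CM, and for Flk1+ high from 2320 to 3711 against Foxa2+ CM and 2140 to 3422 against Foxa2- CM. An arm left with 1 sample was assumed to vary like the other groups.

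Deviations from the group means of CM samples with the same number had r = 0.61, 0.09 and 0.68 over 12205 genes, and Foxa2+ CM replicate 2 correlated best with Foxa2- CM replicate 1, so the numbers were not taken as pairs. Whether they mark shared cultures is not given in the sources used here. A fit with a replicate block called 2556 genes between the CM groups. In it Cxcr4 (−0.32, adjusted p = 0.0114) and Aplnr (−0.32, adjusted p = 0.0363) passed between the CM groups, and Apln between Flk1+ high and Foxa2+ CM turned to −0.18. The replicate block changed no other call.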
